A study of Homo sapiens with 12 samples.

Results

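The response of Raji cells to FX1 was compared between a GFP-high and a GFP-low gate. For each gene, the log2 change from DMSO to FX1 in GFP-high cells was subtracted from the same change in GFP-low cells, so that a positive difference means a higher FX1 effect in GFP-low cells. All 12 of the 12 libraries of the series entered this comparison, with 3 libraries in each of the 4 groups. Raji is a human B-cell line established from a Burkitt lymphoma, and the submitters describe an auxin-inducible degron, a tag that lets SMARCA4 protein be destroyed on demand. The 4 groups were GFP-high cells with DMSO, the vehicle, GFP-high cells with FX1, GFP-low cells with DMSO and GFP-low cells with FX1, each collected at 24 h. Every library carries the same genotype in its label, Smarca4+/+. The labels state neither the construct that carries GFP and its promoter, nor the dose of FX1, nor whether the line is a single clone, nor what a GFP level says about SMARCA4 protein, so groups are named by gate and treatment only. The design text asks how FX1 acts once SMARCA4 protein has been degraded.

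BCL6 is a transcriptional repressor that holds B cells in the germinal centre state by silencing genes of activation, migration, arrest and plasma cell differentiation. It does so by recruiting corepressors to a groove of its BTB domain, and FX1 is a small molecule made to occupy that groove. SMARCA4 (BRG1) is the ATPase of the SWI/SNF complex, which slides and evicts nucleosomes and so opens promoters and enhancers. A gene whose response to FX1 differs between gates is said here to have a larger response in GFP-low cells (same direction and larger, or present in GFP-low cells alone), a blunted response (same direction and smaller, or present in GFP-high cells alone) or an opposite response (called in both gates, in opposite directions).

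Total counts per library lay between 20454028 and 42556661, and 17859 genes passed the filter on low counts. The 3 libraries of a group lay close together, with a common biological coefficient of variation of 1.67%. The labels do not say whether these 3 were grown separately, so p-values reflect only their spread, which may be technical. Summed levels of 12 B-cell markers lay between 7720 and 7930 CPM (counts scaled to the library total) in all 12 libraries. Single markers still differed, with 7 of the 12 having a lower FX1 effect in GFP-low cells and 1 a higher one. Markers of T and NK cells summed to 27.3 to 27.6 CPM in GFP-high cells with DMSO and 9.89 to 10.7 with FX1, against 19.3 to 21.6 in GFP-low cells with DMSO and 6.5 to 8.34 with FX1, with CD8A at 0 in every library; 0 of their 7 tested members differed in the FX1 effect. Myeloid markers summed to 6.83 to 7.28 CPM in GFP-low FX1 and 2.24 to 4.03 elsewhere, with S100A8 and CD163 at 0. Epithelial and stromal markers summed to 17.4 to 19.1 CPM in GFP-low FX1 and 8.45 to 14.3 elsewhere, with KRT18 and COL3A1 at 0. COL1A1, 1 of their 2 tested members, had a higher FX1 effect in GFP-low cells. The part of such cells in the results was not tested. In bulk RNA, fewer cells of a type and less RNA per cell cannot be told apart.

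The FX1 effect differed between gates for 5583 genes (31.3% of those tested; edgeR's quasi-likelihood test with Benjamini-Hochberg adjustment, threshold 0.05). It was higher in GFP-low cells for 2636 genes (14.8%) and lower for 2947 (16.5%). The share of called differences that were higher in GFP-low cells, 47.2%, became 36% when the scaling ignored mitochondrial genes and any gene above 1% of a library. It became 33.9%, 33.5% and 34.4% without GFP-high DMSO replicate 1, 2 and 3 in turn. Most differences were small, with a median size over all genes of 0.216 on the log2 scale. Against a floor of 1.5-fold (edgeR's glmTreat), 151 genes differed (0.846%), 66 of them higher (0.37%) and 85 lower (0.476%). FX1 itself changed 12224 genes in GFP-high cells (68.4%) and 12138 in GFP-low cells (68.0%).

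A larger response in GFP-low cells was called for 2700 genes (15.1%), of which 1252 (7.01%) rose and 1448 (8.11%) fell there. A blunted response was called for 2281 genes (12.8%), with 1089 (6.1%) that rose in GFP-high cells and 1192 (6.67%) that fell. Opposite responses were the smallest class with 575 genes (3.22%), 174 of them (0.974%) up and 401 (2.25%) down in GFP-low cells. A further 27 genes (0.151%) differed between gates without a called effect in either gate. Past the 1.5-fold floor, the classes held 45 larger (0.252%), 58 blunted (0.325%) and 48 opposite (0.269%) responses. The larger responses at this floor were mostly falls, 35 (0.196%) against 10 rises (0.056%), and the blunted ones were 40 falls (0.224%) and 18 rises (0.101%). The opposite responses were 16 up (0.0896%) and 32 down (0.179%) in GFP-low cells.

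**Figure D1:**
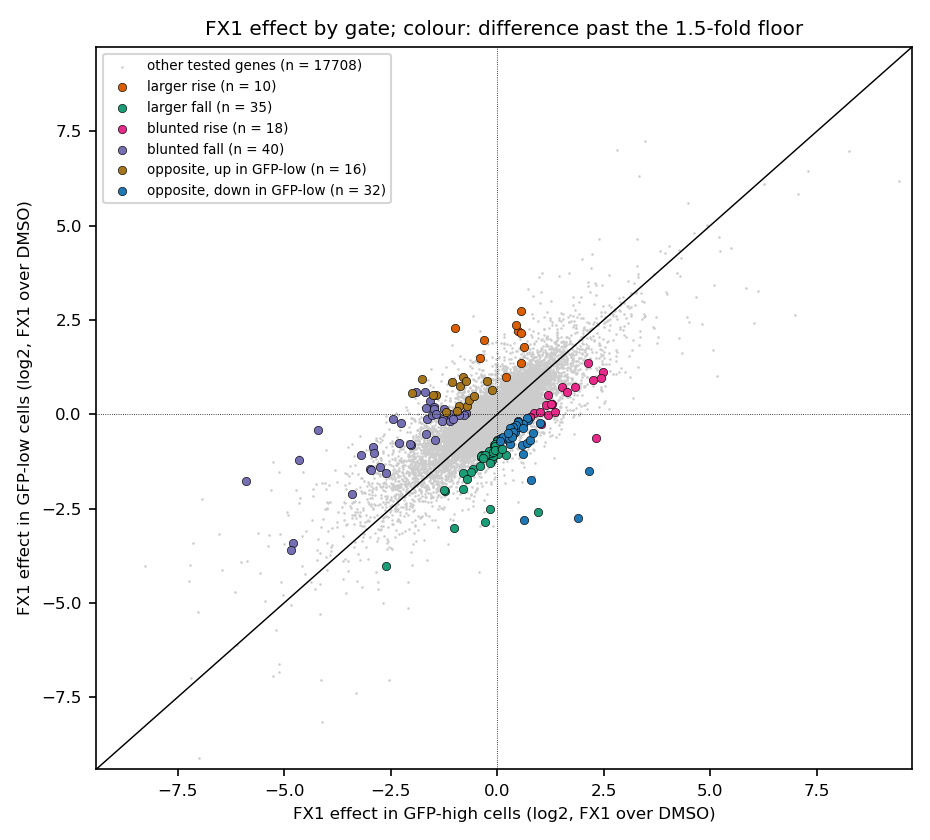
FX1 effect (log2 FX1 over DMSO) in GFP-high cells on the x axis and in GFP-low cells on the y axis for 17859 genes, one point per gene. Coloured points are the 151 genes called past the 1.5-fold floor. Grey points were not called there, whatever the size of their estimated difference. Of the 151, 66 lie above the diagonal, with a higher effect in GFP-low than in GFP-high cells. The other 85 lie below it.

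Part of the 151 genes fell into a few kinds. Genes of the mitochondrial genome made up 16 of them, 15 higher in GFP-low cells and 1 lower, which was 44.4% of the 36 tested. Pseudogene copies of mitochondrial genes gave 8 more (15.7% of 51 tested), and small structured RNAs 15 (3.69% of 406), of which 13 were higher. The 8 histone genes among them (12.1% of 66 tested) were all lower. Other protein-coding genes numbered 68 (0.583% of the 11654 tested), with 54 lower and 14 higher in GFP-low cells. The rest were 3 immunoglobulin genes (4.23% of 71 tested) and 33 genes of other or unknown type (0.592% of 5575).

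A description of which group stood apart, made after these values were seen, counted a group when its mean log2 CPM lay outside the other 3 by more than their range. For 30 of the 35 larger falls GFP-low FX1 lay below all other groups, and for 8 of the 10 larger rises it lay above them. For 10 of the 18 blunted rises GFP-high FX1 lay above the rest. For 30 of the 40 blunted falls the group apart was GFP-high DMSO, above the rest. No single group stood apart for 17 of the 32 opposite responses that went down in GFP-low cells.

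SMARCA4 RNA is given first, because the series is built on this gene. It read 384, 382 and 376 CPM (here and below scaled by TMM) in the GFP-high DMSO libraries, 386, 389 and 391 in GFP-high FX1, 392, 392 and 401 in GFP-low DMSO, and 455, 460 and 452 in GFP-low FX1. The GFP-low FX1 libraries were above all others, and the 3 other groups lay within a narrow band. The FX1 effect was 0.03 in GFP-high and 0.21 in GFP-low cells, a difference of 0.18 ± 0.021 (SE) on the log2 scale with an adjusted p of 1.5e-13. With a trend on transcript GC content and length removed, the difference was -0.00461. A degron acts on protein, so RNA levels do not check the gates. SMARCA2, the alternative ATPase of the complex, responded to FX1 by 0.27 in GFP-high and 0.24 in GFP-low cells, and the difference of -0.04 ± 0.044 (SE) was not called (adjusted p = 0.59).

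BCL6 RNA fell with FX1 in both gates and fell less in GFP-low cells. It read 400, 401 and 399 CPM in GFP-high cells with DMSO and 198, 203 and 196 with FX1, against 345, 343 and 329 in GFP-low cells with DMSO and 216, 211 and 226 with FX1. No library of one group overlapped another group's, and the DMSO level was already lower in GFP-low cells. The effects were -1.01 and -0.64, and the difference of 0.36 ± 0.025 (SE) was called (adjusted p = 6.2e-32) but did not pass the 1.5-fold floor. PRDM1, the gene of BLIMP1, which drives plasma cell differentiation and is a classical BCL6 target, rose 2.04 in GFP-high and 1.70 in GFP-low cells on the log2 scale. Its levels were 19.3, 20.2 and 18.9 CPM in GFP-high cells with DMSO and 78.8, 82 and 80.4 with FX1, against 38.4, 37.7 and 38.7 in GFP-low cells with DMSO and 125, 122 and 126 with FX1. Each GFP-low group was thus above the GFP-high group with the same treatment. The log2 difference of -0.34 ± 0.057 (SE) classes PRDM1 as a blunted rise, but on the linear scale the rise was larger in GFP-low cells by 25.2 CPM.

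Among genes that BCL6 is known to repress, 26 of the 30 listed were tested, and the FX1 effect was lower in GFP-low cells for 16 and higher for 3 (medians of the difference -0.16 for the list and 0.02 for all genes). Of all genes tested, 16.5% were lower and 14.8% higher, and each list count below is to be read beside these shares. The 16 lower effects were 12 larger falls and 4 blunted rises. CD69, an early activation receptor that retains lymphocytes in tissue, was one of those falls. It measured 54, 48.9 and 50.8 CPM in GFP-high cells with DMSO and 46.4, 46.2 and 47.3 with FX1, against 42.7, 42.5 and 40.5 in GFP-low cells with DMSO and 18, 17.9 and 17.9 with FX1. Only the GFP-low FX1 libraries were far from the rest. The difference was -1.09 ± 0.066 (SE), past the 1.5-fold floor with an adjusted p of 6.6e-12. TNFAIP3, a brake on NF-kB signalling, fell by 0.63 in GFP-high and by 1.05 in GFP-low cells. CXCR4, the receptor that draws B cells to the dark zone, went the other way, rising 0.33 in GFP-high and 0.89 in GFP-low cells (difference 0.56 ± 0.042 SE, adjusted p = 1.2e-29). Its GFP-low FX1 libraries read 151, 150 and 146 CPM against 82.6 to 85.1 in GFP-high FX1.

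**Figure D2:**
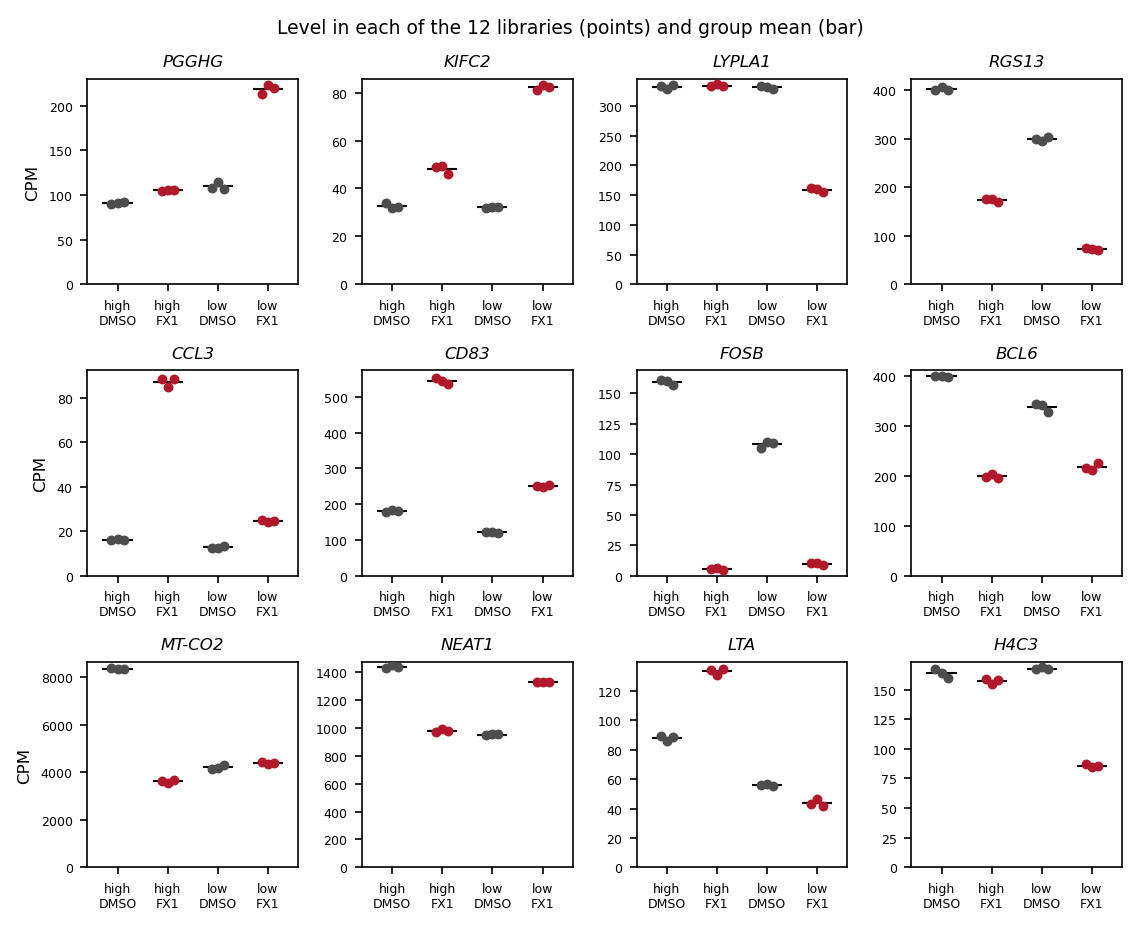
TMM-scaled CPM (y axis, from 0) of 12 genes in each of the 12 libraries, one point per library with a bar at the group mean; grey is DMSO and red is FX1. For LYPLA1 only GFP-low FX1 stands apart, at 155 to 162 CPM, while for MT-CO2 only GFP-high DMSO does, at 8330 to 8390 CPM.

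Several of the larger falls past the floor hardly responded in GFP-high cells. LYPLA1, an enzyme that removes palmitate from proteins (chr8:54046367-54102017, hg38), read 333, 329 and 335 CPM in GFP-high DMSO and 333, 336 and 333 in GFP-high FX1. It read 333, 332 and 329 in GFP-low DMSO and 162, 160 and 155 in GFP-low FX1. The first 3 groups overlapped and the fourth did not. FX1 changed it by 0.01 ± 0.017 (SE) in GFP-high cells and by -1.05 ± 0.018 (SE) in GFP-low cells, and the difference passed the floor with an adjusted p of 1.9e-49.

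TMED7, a cargo receptor of vesicles between the endoplasmic reticulum and the Golgi, fell by 0.17 and by 1.28 in the respective gates. Its 3 GFP-low FX1 libraries lay between 31.2 and 36.5 CPM, and the other 9 lay between 79.3 and 93.1. MZT1, a part of the gamma-tubulin complex, fell by 0.71 and by 1.71, and PCLAF, a partner of the replication clamp PCNA, fell by 0.81 and by 1.97. IER3IP1, a small protein of the endoplasmic reticulum, had an effect of -0.09 ± 0.06 (SE) in GFP-high cells that was not called and fell by 1.12 in GFP-low cells. Of the 35 larger falls past the floor, 12 had no called effect in GFP-high cells.

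The next 5 genes of the 35 were chosen after their values were seen and belong to none of the lists. SRP9, a subunit of the signal recognition particle, went from 212 to 191 CPM (group means) with FX1 in GFP-high cells and from 180 to 87.2 in GFP-low cells. TRAM1, a membrane protein beside the translocation channel, stood at 302 CPM with and without FX1 in GFP-high cells and went from 282 to 176 in GFP-low cells. SPCS3, a subunit of signal peptidase, showed the same shape, with 367 CPM in both GFP-high groups and a change from 327 to 198 in GFP-low cells. TMED5 and GOLT1B, both of vesicle traffic, had log2 differences of -0.74 and -0.81. Their differences were smaller with the GC and length trend removed, at -0.66 for SRP9, -0.50 for TRAM1, -0.50 for SPCS3, -0.57 for TMED5 and -0.49 for GOLT1B. On the list of the unfolded protein response, which holds chaperones and sensors of the endoplasmic reticulum, 13 of 16 tested members were lower in GFP-low cells and 0 were higher, with none past the floor.

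Germinal centre identity genes shared this direction. Of 25 tested, 14 were lower and 2 higher in GFP-low cells, 10 of them as larger falls, with a median difference of -0.19 against 0.02 over all genes. RGS13, a germinal centre inhibitor of G-protein signalling, read 400, 406 and 401 CPM in GFP-high DMSO and 176, 175 and 169 in GFP-high FX1. It read 299, 295 and 303 in GFP-low DMSO and 74.9, 73.4 and 70.1 in GFP-low FX1. None of its 4 groups overlapped. The effects were -1.22 and -2.03, a difference of -0.81 ± 0.029 (SE) that passed the floor (adjusted p = 2.5e-12), but in linear CPM the drop was no larger in GFP-low cells (difference of 2.95 CPM in the other direction). MYBL1, a germinal centre transcription factor, fell by 1.26 and by 2.01 (floor adjusted p = 0.017). GNA13, which with S1PR2 keeps B cells confined to the follicle, fell by 0.34 and by 0.75.

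Histone genes of the replication-dependent families package newly copied DNA, and their list had the lowest median difference of the 36 lists. The effect was lower in GFP-low cells for 24 of 26 tested and higher for 0, with a median difference of -0.51 and medians of -0.49 in GFP-high and -1.02 in GFP-low cells. H4C3 read 167, 164 and 160 CPM in GFP-high cells with DMSO and 159, 155 and 158 with FX1, against 167, 169 and 167 in GFP-low cells with DMSO and 87.4, 84.6 and 85.4 with FX1. The last group was apart from the other 9 libraries, and the difference was -0.90 ± 0.034 (SE) with a floor adjusted p of 7e-17. H2BC18, with effects of -0.62 and -1.52, and H2AC13, with -0.37 and -1.14, passed the floor too. Near-identical copies make single histone genes uncertain. On the G1/S list 8 of 23 genes were higher and 2 lower, with a median difference of 0.04. On the G2/M list 4 of 24 were higher and 10 lower, with 9 larger falls and a median of -0.10. After removal of the GC and length trend, medians were -0.56 for the histones, -0.03 for G1/S and -0.01 for G2/M. Called members were then 0 higher and 23 lower for the histones. For G1/S they were 4 higher and 7 lower, so the balance turned, and for G2/M 5 higher and 7 lower. The difference between lists was not tested. Histone genes made up 0.678% ± 0.00225 (SD, n = 3) of counts in GFP-high cells with DMSO and 0.546% ± 0.00283 with FX1, against 0.65% ± 0.00817 in GFP-low cells with DMSO and 0.374% ± 0.00162 with FX1.

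Only 10 rises past the floor were larger in GFP-low cells, and 3 of them had a symbol and a level that the naming rule accepts. PGGHG, an enzyme that removes glucose from hydroxylysine in collagen, read 89.3, 91 and 92 CPM in GFP-high DMSO and 104, 106 and 105 in GFP-high FX1. It read 108, 114 and 107 in GFP-low DMSO and 213, 223 and 220 in GFP-low FX1. GFP-low FX1 was higher than all other libraries, and the difference was 0.78 ± 0.036 (SE; floor adjusted p = 2.6e-06). KIFC2, a kinesin motor, rose 0.57 and 1.35, from 31.8 to 33.8 CPM in the 6 DMSO libraries to 46.2 to 49.5 in GFP-high FX1 and 81.1 to 83.1 in GFP-low FX1. MAP1A, a microtubule-binding protein, rose 0.62 and 1.79 from at most 5.01 CPM in DMSO. Below the floor, larger rises included PIM1, a survival kinase (0.39 and 1.10), BTG2, an antiproliferative p53 target (0.27 and 0.80), and BMF, a pro-apoptotic BH3-only protein (0.41 and 0.98). Their lists held called members of both directions. The cytokine, JAK and STAT list of PIM1 had 5 of 18 higher in GFP-low cells and 3 lower. The p53 target list had 6 of 21 higher and 7 lower, and the BCL2 family 2 of 15 higher and 6 lower. Of all genes tested, 14.8% were higher and 16.5% lower.

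Blunted rises were led by a block of chemokine genes on chromosome 17. CCL3, which attracts T cells and myeloid cells, read 16, 16.5 and 16.1 CPM in GFP-high cells with DMSO and 88.5, 84.8 and 88.3 with FX1, against 12.4, 12.6 and 13.3 in GFP-low cells with DMSO and 25.3, 24.1 and 24.8 with FX1. The groups did not overlap, and FX1 raised CCL3 in both gates by 2.43 and 0.96. The difference of -1.47 ± 0.08 (SE) passed the floor with an adjusted p of 8.1e-22. CCL4, CCL4L2 and CCL3L3 had differences of -1.36, -1.34 and -1.09. These 4 genes are near-identical pairs, so their reads may be split between copies and they are not independent. IGHV1-69, an immunoglobulin variable segment that is also uncertain for its homologues, rose 1.63 and 0.60.

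CLIC2, an intracellular chloride channel family member on chromosome X, was raised 1.19 by FX1 in GFP-high cells, and its effect of -0.03 ± 0.14 (SE) in GFP-low cells was not called. Its libraries stayed between 2.1 and 6.85 CPM. FCRL3 and FCRL4, Fc receptor-like molecules of B cells, were named after their values were seen. FCRL3 read 74, 72.8 and 74.6 CPM in GFP-high DMSO and 321, 320 and 326 in GFP-high FX1, against 60.8, 60.2 and 61.3 in GFP-low DMSO and 158, 157 and 155 in GFP-low FX1. Both gates rose, and GFP-high FX1 was the highest group. FCRL4 went from 10.2 to 25 CPM in GFP-high cells and from 11.7 to 14 in GFP-low cells (group means).

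Light-zone and NF-kB genes were more often lower than higher in GFP-low cells, but not by blunted rises alone. On the light-zone list, 11 of 22 tested members were lower in GFP-low cells and 2 higher, and on the overlapping NF-kB list 12 of 22 were lower and 1 was higher, with medians of -0.24 and -0.29. The lower light-zone members were 6 blunted rises, 4 larger falls and 1 opposite response. For NF-kB they were 7 blunted rises, 4 larger falls and 1 opposite response. CD83, a light-zone activation marker, read 178, 184 and 180 CPM in GFP-high cells with DMSO and 552, 545 and 537 with FX1, against 122, 123 and 120 in GFP-low cells with DMSO and 251, 248 and 253 with FX1. Its groups were all apart, and the rises of 1.59 and 1.04 differed by -0.55 ± 0.027 (SE; adjusted p = 1.7e-52), short of the floor. TRAF1, an adaptor of TNF receptors, rose 0.61 in GFP-high cells, and its effect of 0.01 ± 0.022 (SE) in GFP-low cells was not called. SLAMF1, a receptor of activated lymphocytes, rose by 0.17 in GFP-high cells and fell by 0.49 in GFP-low cells. The receptor CD40 and the adhesion molecule ICAM1 were blunted rises as well, while NFKBIA, NFKB1, NFKB2 and REL did not pass the test. BIRC3 of the NF-kB list was a larger fall, by 0.83 and by 1.13. Its difference of -0.30 became -0.05 with the GC and length trend removed.

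Genes that NRF2 turns on under oxidative stress had median FX1 effects of 1.14 in GFP-high and 0.88 in GFP-low cells. Of 18 tested, 10 rose less in GFP-low cells and 2 rose more, against 6.1% and 7.01% of all genes tested. SLC7A11, the cystine importer, read 155 to 160 CPM in GFP-high DMSO and 259 to 263 in GFP-high FX1, against 169 to 178 and 186 to 190 in GFP-low cells. Its effects were 0.72 and 0.13, a difference of -0.59 ± 0.029 (SE; adjusted p = 7.5e-52). FTH1, the ferritin heavy chain, rose 1.80 and 1.56, and GCLM, which helps make glutathione, rose 1.29 and 0.80.

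Blunted falls held immediate early genes, mitochondrial transcripts and small nuclear and nucleolar RNAs. FOSB, a subunit of the AP-1 transcription factor, read 161, 160 and 157 CPM in GFP-high cells with DMSO and 5.63, 6.42 and 5.15 with FX1, against 105, 110 and 109 in GFP-low cells with DMSO and 10.7, 10.2 and 9.14 with FX1. FX1 lowered it far in both gates, and both ends of the change lay closer together in GFP-low cells. The effects were -4.80 and -3.41, a difference of 1.39 ± 0.083 (SE; floor adjusted p = 1.3e-17). FOS, of the same family, fell by 4.84 and by 3.61. Of the 19 AP-1 and immediate early genes tested, 10 were higher in GFP-low cells and 2 lower, with a median difference of 0.31; 8 of the called members were blunted falls and 2 were blunted rises. VEGFA, an angiogenic factor induced by hypoxia, fell by 0.73 in GFP-high cells and changed by 0.03 ± 0.04 (SE) in GFP-low cells. MHC class II genes, which present antigen to helper T cells, had median effects of -0.89 in GFP-high and -0.65 in GFP-low cells, and 8 of 13 were blunted falls with 1 larger fall. Of all genes tested, 6.67% were blunted falls and 8.11% larger falls.

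The mitochondrial genome moved as a block. Its 13 protein genes encode core subunits of the respiratory chain and ATP synthase, and all 13 had a higher FX1 effect in GFP-low cells, with a median difference of 1.08; 12 passed the floor. MT-CO2, a subunit of cytochrome c oxidase, read 8390, 8350 and 8330 CPM in GFP-high cells with DMSO and 3640, 3550 and 3680 with FX1, against 4150, 4180 and 4290 in GFP-low cells with DMSO and 4440, 4350 and 4370 with FX1. Only GFP-high DMSO was far from the rest, and this held for all 12 of the protein genes past the floor. The FX1 effect on MT-CO2 was -1.21 in GFP-high and 0.06 in GFP-low cells, and over the 19 alternative log-scale settings the latter ranged from 0.02 to 0.28. The difference of 1.26 ± 0.015 (SE) passed the floor with an adjusted p of 3.7e-89. Of these 13 genes, 8 were blunted falls, such as MT-ATP8 with effects of -1.67 and -0.53, and 5 were opposite responses. MT-ND6, the one protein gene on the other strand, missed the floor with a difference of 0.13 ± 0.029 (SE).

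The mitochondrial ribosomal RNAs did not follow. MT-RNR1 read 356, 372 and 350 CPM in GFP-high cells with DMSO and 809, 829 and 847 with FX1, against 90.3, 90.7 and 88.2 in GFP-low cells with DMSO and 128, 127 and 129 with FX1. Both GFP-low groups were below both GFP-high groups, and FX1 raised it in each gate, by 1.20 and 0.51. Mitochondrial genes made up 7.88% ± 0.0344 (SD, n = 3) of counts in GFP-high cells with DMSO and 4.28% ± 0.0428 with FX1, against 4.76% ± 0.0641 and 5.09% ± 0.0372 in GFP-low cells. The ribosomal RNAs are among the targets of ribosomal RNA depletion, and the part of library preparation in these values was not tested. Nuclear-encoded subunits of the same chain were mixed, with 14 of 30 lower and 6 higher in GFP-low cells and a median difference of -0.09. Over all genes tested, 16.5% were lower and 14.8% higher. ATP5F1B, a catalytic subunit of ATP synthase, rose 0.28 in GFP-high cells and had an effect of -0.01 in GFP-low cells.

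**Figure D3:**
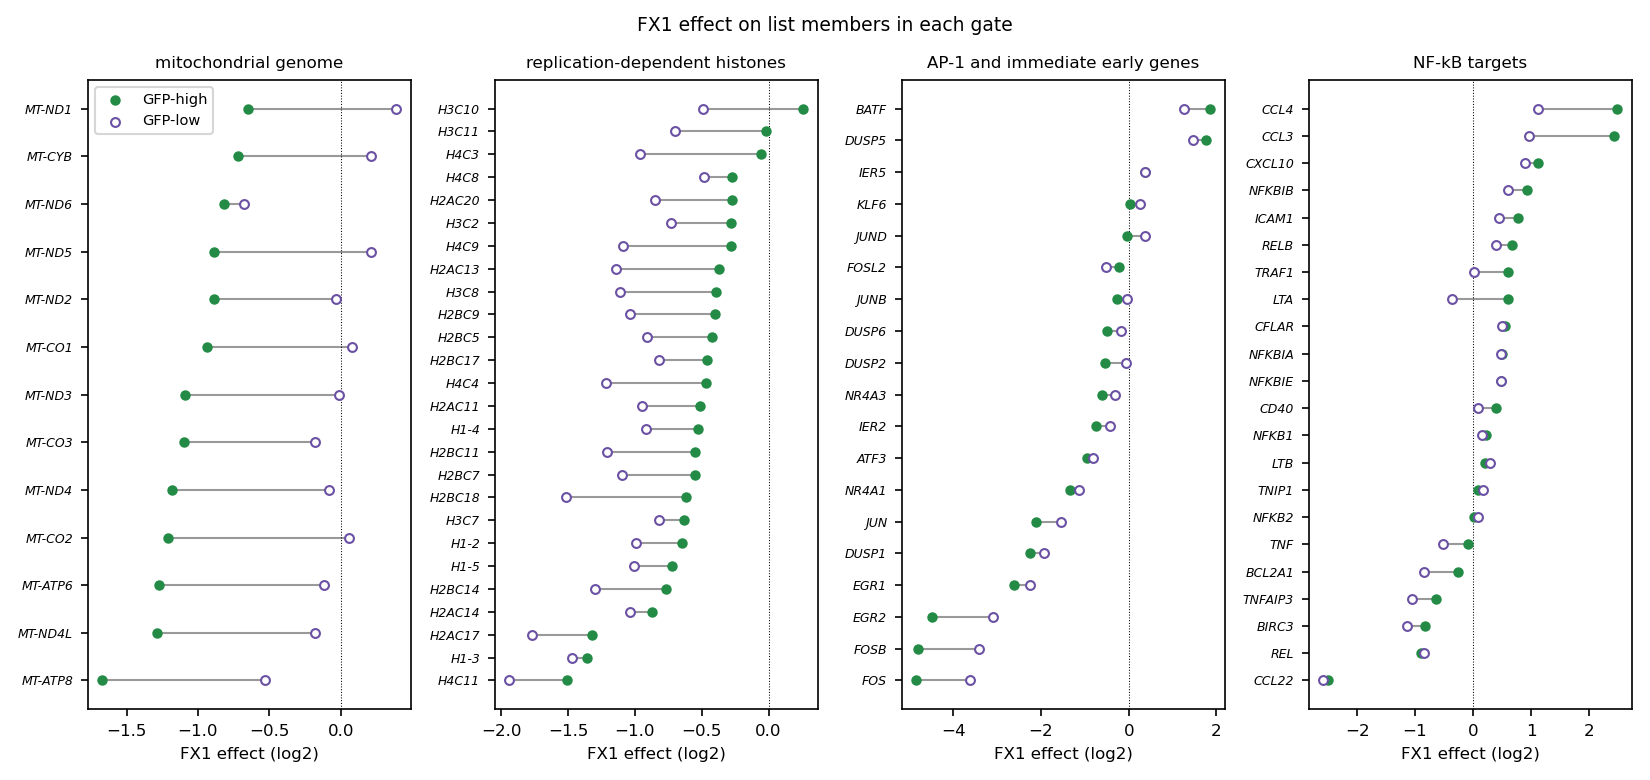
FX1 effect (x axis, log2 FX1 over DMSO) in GFP-high cells (filled) and GFP-low cells (open) for each tested member of 4 gene lists, with a line joining the 2 values of a gene. The 13 mitochondrial genes all shift to the right in GFP-low cells and 24 of 26 histones have a called shift to the left.

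Of 406 small structured RNAs tested, 15 (3.69%) passed the floor, and 12 of the 15 were blunted falls. SNORA73B, a small nucleolar RNA, read 163, 176 and 154 CPM in GFP-high cells with DMSO and 39.8, 40 and 41.4 with FX1, against 56.3, 56.7 and 57.4 in GFP-low cells with DMSO and 32.9, 32.6 and 30.3 with FX1. GFP-high DMSO was again the highest group, and the effects of -2.03 and -0.82 differed by 1.21 ± 0.053 (SE; floor adjusted p = 2.4e-22). SNORD17 and SNORD15B, chosen after their values were seen, had group means of 102 and 34.1 CPM in GFP-high cells with DMSO and 20.7 and 6.24 with FX1, against 35.4 and 7.03 in GFP-low cells with DMSO and 20.6 and 6.42 with FX1. RN7SL1, the RNA of the signal recognition particle, held 0.174% ± 0.0117 (SD, n = 3) of counts in GFP-high cells with DMSO and 0.325% ± 0.0227 with FX1, against 0.34% ± 0.0273 in GFP-low cells with DMSO and 0.569% ± 0.0193 with FX1. Its share thus rose with FX1 in both gates, and the difference in its FX1 effect was not called. These RNAs are short and structured, and the part of fragment size or RNA recovery was not tested.

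Opposite responses up in GFP-low cells included NEAT1, the RNA scaffold of nuclear paraspeckles (chr11:65422774-65445540, hg38). It read 1430, 1450 and 1440 CPM in GFP-high cells with DMSO and 975, 995 and 976 with FX1, against 948, 957 and 955 in GFP-low cells with DMSO and 1330, 1330 and 1330 with FX1. The order of the treatments was reversed between gates with no overlap. FX1 changed it by -0.55 and 0.48, a difference of 1.03 ± 0.017 (SE; floor adjusted p = 4.8e-72). MALAT1, its neighbour on the chromosome and also retained in the nucleus, had effects of -0.08 and 0.30. On the list of nuclear long noncoding RNAs, 9 of 11 were higher in GFP-low cells and 1 was lower. The other genes named in this class were IGHV3-21, an immunoglobulin segment with effects of -0.23 and 0.89, and MT-CO2, MT-ND5, MT-ND1 and MT-CO1 of the mitochondrial genome.

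Opposite responses down in GFP-low cells numbered 32 past the floor. LTA, the lymphotoxin that shapes lymphoid tissue, read 89.5, 86 and 88.8 CPM in GFP-high cells with DMSO and 134, 131 and 135 with FX1, against 56.3, 56.6 and 55.4 in GFP-low cells with DMSO and 43, 46.2 and 41.9 with FX1. None of the groups overlapped, and FX1 moved the gates apart. The effects were 0.60 and -0.36, a difference of -0.96 ± 0.047 (SE; floor adjusted p = 1e-12).

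MIR155HG, the host transcript of miR-155, was named after its values were seen. It read 21.5, 21.7 and 24.6 CPM in GFP-high cells with DMSO and 46.8, 43.4 and 44.6 with FX1, against 23.5, 22.9 and 20.6 in GFP-low cells with DMSO and 17.3, 21 and 19.1 with FX1. The 2 DMSO groups overlapped, as did the 2 GFP-low groups, and only GFP-high FX1 was apart. The log2 effects of MIR155HG were 1.00 and -0.24. UBE2D1, a ubiquitin-conjugating enzyme, rose by 0.38 and fell by 0.53, with libraries of 16.7 to 19.5 CPM in GFP-high FX1 and 8.57 to 10.1 in GFP-low FX1. RNF11, a ubiquitin ligase, had effects of 0.61 and -0.27, and FSD1L 0.26 and -0.67. Over the 19 alternative log-scale settings, the GFP-low effect ranged from -0.58 to -0.08 for UBE2D1 and from -0.35 to -0.07 for RNF11. H4C2 and IGLC3, both uncertain for near-identical copies, had effects of 0.35 and -0.59 and of 0.31 and -0.80.

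Promoter windows were searched for 6 short words, each named here after a factor known to bind such letters. Other factors may bind the same letters. Each window ran from 250 bases before to 50 bases after the start, taken from RefSeq on GRCh38.p14, and 10544 of the tested genes had one. Of the 33 genes named by class, 14 had a window. The words were TTCNNNGAA for BCL6, TGANTCA for AP-1, TGACNNNGC for NRF2, ACGTG for HIF, GAANNTTC for heat shock factor and the CArG-type word of serum response factor, on both strands. The AP-1 and NRF2 words can lie on the same bases. TTCNNNGAA was in 6.52% of all windows and in 3 of 18 (16.7%) of the opposite responses down in GFP-low cells, namely LTA, UBE2D1 and MIR155HG. TGANTCA was in 4.55% of all windows and in 4 of 10 (40%) of the blunted rises, namely CLIC2, FCRL3, FCRL4 and TAF13. This word leaves its middle base open, which was C in CLIC2 and T in FCRL3, FCRL4 and TAF13. The AP-1 label is therefore a loose one. ACGTG was in 27.0% of all windows, in 10 of 20 (50%) of the larger falls and in 1 of 10 of the blunted rises, and TGACNNNGC was in 15.6% of all windows and in 0 of 10 blunted rises. The windows of the blunted rises had a median GC content of 49.8% against 64.7% for all. A match says only that these letters are present, and the counts are too few to read further.

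The stretches below show those words in capitals, in lower case otherwise, each read 5′ to 3′ on the strand of the gene. LTA holds the BCL6 word at 2 places, chr6:31571918-31571986 and chr6:31572057-31572098. UBE2D1 holds it at chr10:58334926-58334994.
LTA, first BCL6 word: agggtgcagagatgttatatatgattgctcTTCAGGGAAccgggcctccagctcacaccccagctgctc
LTA, next BCL6 word: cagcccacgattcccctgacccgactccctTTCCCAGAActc
UBE2D1, BCL6 word: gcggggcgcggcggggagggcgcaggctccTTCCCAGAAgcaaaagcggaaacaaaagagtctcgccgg

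MIR155HG holds an AP-1 word as well as a BCL6 word, and is shown with the AP-1 words of 3 blunted rises. The middle base of the word is G in MIR155HG, C in CLIC2 and T in FCRL3 and FCRL4. They lie at chr21:25562055-25562121 for MIR155HG, chrX:155334725-155334791 for CLIC2, chr1:157700897-157700963 for FCRL3 and chr1:157598183-157598249 for FCRL4.
MIR155HG, AP-1 word: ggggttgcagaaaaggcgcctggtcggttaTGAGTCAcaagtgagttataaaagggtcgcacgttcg
CLIC2, AP-1 word: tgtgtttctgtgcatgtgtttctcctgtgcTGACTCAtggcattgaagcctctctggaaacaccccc
FCRL3, AP-1 word: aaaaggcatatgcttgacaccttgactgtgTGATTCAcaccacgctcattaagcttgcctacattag
FCRL4, AP-1 word: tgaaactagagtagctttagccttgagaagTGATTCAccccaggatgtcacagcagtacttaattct

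The remaining lists varied in direction. Over all genes tested, 14.8% were higher in GFP-low cells and 16.5% lower. SWI/SNF subunits had 11 of 28 members higher in GFP-low cells and 2 lower, but 6 higher and 3 lower with the GC and length trend removed. BCL6 corepressors had 6 of 20 higher and 2 lower, but 3 higher and 4 lower with that trend removed. B-cell receptor signalling genes had 13 of 24 lower and 4 higher, and PRKCB, a kinase of that pathway, rose 1.03 in GFP-high and 0.50 in GFP-low cells. Cytosolic ribosomal proteins had 24 of 34 lower and 5 higher, with a median of -0.11. On the cholesterol synthesis list 8 of 21 were lower and 3 higher. INSIG1, which holds back sterol synthesis when sterol is plentiful, fell by 0.81 in GFP-high and by 1.56 in GFP-low cells, past the floor (adjusted p = 1.8e-13). Interferon response genes had 3 of 20 higher (IFI27, IRF7 and STAT2), a share near the 14.8% of all genes tested, and 0 lower; IRF7 and STAT2 lost their calls with the GC and length trend removed.

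**Figure D4:**
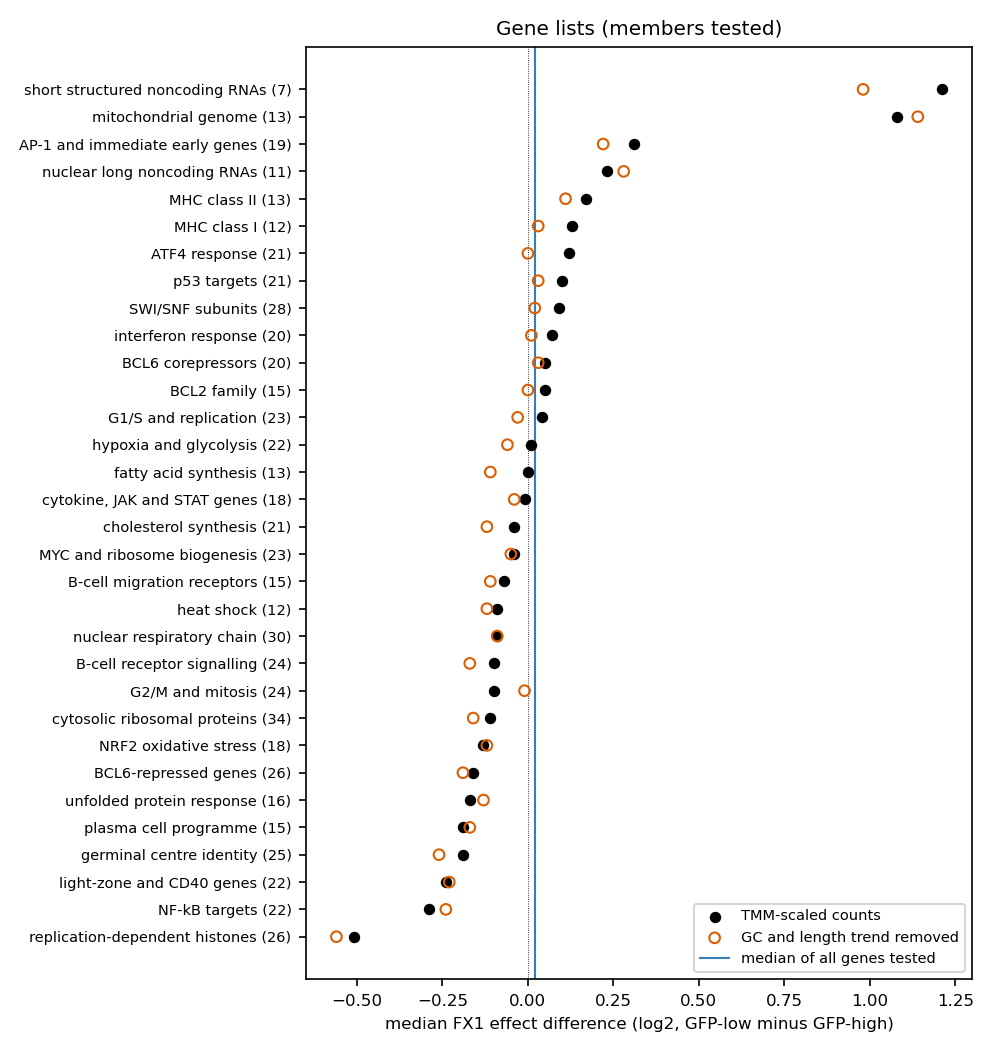
Median difference of the FX1 effect (x axis, log2, GFP-low minus GFP-high) for the 32 lists that are not cell type markers, with the number of members tested in brackets. Filled points use TMM-scaled counts, open points have the GC and length trend removed, and the blue line is the median of all genes, 0.02; histones lie lowest at -0.51.

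The difference also moved with base composition. Across 11656 genes with a mean log2 CPM above 1, its Spearman correlation with transcript GC content was 0.442, against 0.253 for the FX1 effect in GFP-high and 0.464 in GFP-low cells; the points share all 12 libraries. When genes with a mean above 1 CPM were put in 10 bins of GC content, the median difference was -0.23 in the lowest bin and 0.17 in the highest. Larger falls past the floor had a median GC content of 37.6%, and larger rises 62.9%, against 47.6% for all genes tested. With the trend removed, 3725 of 5552 called genes (67.1%) stayed called in the same direction, 1791 were lost and 36 turned. Of the larger rises 45% stayed, of the larger falls 65.7%, of the blunted rises 76.0% and of the blunted falls 75%. Of the opposite responses 90.2% of those up and 85.5% of those down in GFP-low cells stayed called in the same direction. Fewer kept their class: 44 of the 174 up and 125 of the 401 down in GFP-low cells were still opposite responses, against 474 of 1252 larger rises, 751 of 1448 larger falls, 769 of 1089 blunted rises and 765 of 1192 blunted falls. Past the floor, 14 of 16 opposite responses up and 22 of 32 down in GFP-low cells were still opposite. All 151 genes past the floor stayed called in the same direction by the plain test, which asks less than the floor. Against the 1.5-fold floor itself, 103 genes passed with the trend removed. Whether the GC trend is technical was not tested.

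**Figure D5:**
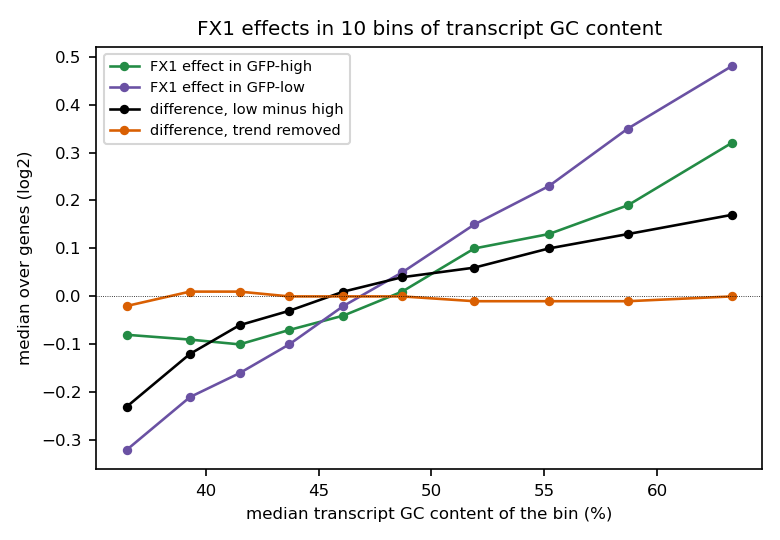
Median FX1 effect in each gate and median difference (y axis, log2) in 10 bins of transcript GC content (x axis, percent), with 1324 or 1325 genes a bin. The difference climbs from -0.23 to 0.17 and stays within 0.02 of 0 once the trend is removed.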

How the data were processed

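RNA was measured by sequencing of ribosomal RNA-depleted total RNA (KAPA RNA HyperPrep with RiboErase), per the labels' protocols. The authors used FastQC, STAR, the featureCounts program of Subread and R 4.2.1 with the hg38 build, per the submitters' processing notes. What the authors deposited is a table of unnormalized counts of reads per gene. Program versions, the gene annotation and the setting for strand are not given in the sources used here, so overlapping, antisense and near-identical genes are uncertain.

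Of its 60710 lines, 3 formed a single broken gene record and were left out, leaving 60707 genes, 60506 of them (99.67%) with a symbol. No count column (0) lacked a sample. Counts were fitted with edgeR 4.0.16 in R 4.3.3 (filterByExpr, TMM scaling, robust quasi-likelihood fit, 4 group means, 8 residual degrees of freedom) on all 12 libraries. The contrast was the FX1 effect in GFP-low cells minus that in GFP-high cells, tested plainly and against a 1.5-fold floor (glmTreat), with Benjamini-Hochberg adjustment over all 17859 genes at 0.05. A gene's standard error is its log2 change divided by the square root of its F statistic. Total counts lay between 20454028 and 42556661, and PCR reads that lack molecular identifiers do not count molecules. The fit was tested on simulated counts.

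Genes named by class were the 6 with the largest difference in each of 6 classes past the floor. They needed a mean log2 CPM of 2 or more, a proper symbol and FX1 change ranges that did not overlap between gates, which held for 4918 of all genes (27.5%). From each list the 4 called members of lowest p (2 members if no member passed), and SMARCA4, SMARCA2, BCL6 and PRDM1 were added, giving 153 genes. The report describes a part of these. The 36 lists with 726 entries overlap in part. The comparison, lists and members were chosen with earlier results of these data known.

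Alternatives were DESeq2's size factors, DESeq2 1.42.0, no low-count filter, at least 50 counts in 3 libraries, the replicate number as a block, leaving 38 mitochondrial or abundant genes out of scaling, removal of a smooth trend per library on GC content and length (mgcv 1.9.3; 17557 genes, 98.3%), a 2-fold floor, the linear CPM scale, and leaving out each library in turn.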

Additional observations from a re-analysis of the deposited data

Results flagged for a closer look

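The same contrast, FX1 against DMSO, gave different effects in the 2 gates by a test of the difference itself for 5583 genes, and 48 genes past the 1.5-fold floor had called effects of opposite sign. Of the opposite responses named by the rule, those higher in GFP-low cells had log2 differences of 1.26 for MT-CO2, 1.12 for IGHV3-21, 1.10 for MT-ND5, 1.03 for NEAT1, 1.03 for MT-ND1 and 1.03 for MT-CO1. Those lower in GFP-low cells had differences of -1.11 for IGLC3, -0.96 for LTA, -0.95 for H4C2, -0.93 for FSD1L, -0.91 for UBE2D1 and -0.88 for RNF11. With the GC and length trend removed, all 12 differences kept their direction and their call by the plain test. The effects in the gates kept opposite signs in all 19 alternative log-scale settings. At its smallest, the GFP-low effect was 0.02 for MT-CO2, 0.04 for MT-CO1, -0.08 for UBE2D1 and -0.07 for RNF11. The GFP-high effect of IGHV3-21 was -0.06 at its smallest. IGHV3-21, IGLC3 and H4C2 have near-identical copies. Groups of 3 libraries were not examined for single outlying libraries.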

How the results depend on the processing

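The count of 5583 genes ranged from 5167 to 5432 when single libraries were left out, and was 4757 with DESeq2. Same-numbered libraries did not deviate together (r from -0.0402 to 0.0194 over 18 pairs, 0 above 0.1), so the numbers do not pair them; with the replicate number as a block, 5536 genes were called. Leaving out single libraries gave 133 to 153 genes past the 1.5-fold floor, 2511 to 2645 larger, 2069 to 2209 blunted and 510 to 596 opposite responses, and past the floor 36 to 53, 49 to 59 and 40 to 49. The share of differences higher in GFP-low cells ranged from 33.5% to 47.6% in those fits and was 36% with abundant genes out of scaling. A 2-fold floor, which is stricter by construction, left 26 genes, with 1 larger, 15 blunted and 10 opposite. DESeq2 called 89 past 1.5-fold, with 28, 32 and 29. With the GC and length trend removed, larger responses fell to 1782, and to 22 past the floor; the cause of the DESeq2 and GC changes was not tested. Of the 36 list medians, 15 moved beyond their spread between libraries with the trend removed, and 12 with abundant genes out of scaling. Requiring at least 50 counts in 3 libraries moved 4. Over the fits without 1 library, 54 list values moved beyond that spread and 378 did not. SMARCA4 turned to -0.00461 with the trend removed. On the linear CPM scale RGS13 (2.95), PRDM1 (25.2), CR2 (131), CCNG1 (19.1), IDI1 (6.79), HMGCS1 (90.4), TOP2A (22) and CDK1 (6.07) turned positive. IRF7 lost its call without GFP-high DMSO replicate 3 (0.32), and STAT2 lost its call in 9 of the 12 fits without 1 library. Effects of low-count genes rest on few reads, and differences below the spread between libraries were not detectable at this depth.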

Other observations

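Genes of the G2/M list, with median FX1 effects of -0.61 in GFP-high and -0.66 in GFP-low cells, did not differ between gates in a single direction. MKI67, the proliferation marker, read 1250 to 1260 CPM in GFP-high DMSO, 609 to 618 in GFP-high FX1, 906 to 914 in GFP-low DMSO and 515 to 516 in GFP-low FX1. Its effects of -1.03 and -0.82 make it a blunted fall, as do those of CENPF, a kinetochore protein (-0.95 and -0.66). TOP2A and CDK1, by contrast, were larger falls on the log2 scale, with effects of -0.57 and -0.77 and of -0.80 and -1.15, although in linear CPM neither drop was larger in GFP-low cells.

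Of the 48 opposite responses past the 1.5-fold floor, 5 more are given here, chosen after their values were seen. LDHB, a lactate dehydrogenase subunit, went from 123 to 164 CPM (group means) with FX1 in GFP-high cells and from 172 to 125 in GFP-low cells. CYCS, cytochrome c, went from 610 to 744 and from 536 to 413. PLEK, a signalling protein of blood cells, went from 694 to 975 and from 627 to 559, and SRGN, a granule proteoglycan, from 56.9 to 91.4 and from 70.5 to 66.1. VAMP1, a vesicle fusion protein, went the other way, from 58.9 to 53.7 in GFP-high and from 61.9 to 95.9 in GFP-low cells.

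Glycolytic genes showed both kinds of difference. On the hypoxia and glycolysis list 8 of 22 members were higher and 9 lower in GFP-low cells, with 7 larger falls and 7 blunted falls. Of all genes tested, 14.8% were higher and 16.5% lower. GPI, the second enzyme of glycolysis, fell by 0.65 in GFP-high and by 1.04 in GFP-low cells, and GAPDH fell by 0.25 and by 0.53, while VEGFA of the same list had a blunted fall.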
